A study of Mus musculus with 12 samples.

Results

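TCRα chains of newly developed thymic Treg were compared between mice that lack IL-15 (Il15°) and wt mice. The comparison takes 8 of the 12 libraries of the series, 4 wt and 4 Il15°, chosen by the genotype in their labels, while the 4 Il2° libraries serve only to show where Il15° differs from the other cytokine mutant. Every library was made from 100000 CD4+CD8-Thy1.1+GFP+ thymocytes of a single mouse aged 3 weeks on the B6 background, and all mice carried the Rag2-Gfp and Foxp3-Thy1a reporters, the Kaa Tcrb transgene and 1 Tcra null allele. Wt and Il15° mice differ in the Il15null genotype, which is a germline mutation present in all cells and not in 1 source of the cytokine. The transgene gives every cell the same TCRβ chain, so the repertoire described here is that of TCRα chains that pair with this chain. Only Tcra transcripts were sequenced, and neither the Il15 deletion nor the genes of the sorting gate could be checked in these data.

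In the mouse Tcra locus, a V segment (TRAV) is joined to a J segment (TRAJ) by recombination, and bases are trimmed or added at the junction. The CDR3, which spans this junction, is the part of the chain that mostly contacts the peptide presented to the T cell. Successive rounds of recombination can replace a first join by one that uses a V segment further upstream and a J segment further downstream. IL-15 is a cytokine that shares receptor chains with IL-2 and acts on developing Treg in the thymus.

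A clonotype was defined by its V segment, the amino acid sequence of its CDR3 and its J segment, and a UMI, a random tag given to each transcript, counts as 1 mRNA molecule. In-frame sequences made up 95.1% to 96.6% of the UMIs. The wt libraries held 24811, 22890, 15427 and 16703 in-frame UMIs and the Il15° libraries 17264, 13078, 10340 and 17819. Together these were 138332 UMIs in 15223 clonotypes. The shallowest library was thus an Il15° library, and numbers of clonotypes were compared after each library had been drawn down to its 10340 UMIs (mean of 20 draws). A share is given as the percent of the in-frame UMIs of a library, of which 3 UMIs are between 0.0121% and 0.0290%, and intervals cover counting error only. A higher share can come from more cells or from more transcripts per cell, which cannot be told apart.

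The 8 libraries were not independent of each other in their sequences. Junctions with at least 6 bases that belong neither to V nor to J are unlikely to arise repeatedly by recombination, and pairs of libraries were compared for exact sequences of this kind. Libraries wt 1 and wt 2 had 220 of them in common, 30.4% of those in wt 1 and 35.4% of those in wt 2. Wt 3 and wt 4 shared 182 (64.1% and 43.2%), Il15° 1 and Il15° 4 shared 211 (41.1% and 42.0%), Il15° 3 and Il15° 4 shared 109 (53.2% and 21.7%), and Il15° 2 and Il15° 3 shared 85 (34.0% and 41.5%). The other pairs of the same genotype had only 23 to 41 (wt) and 11 to 37 (Il15°) in common, and the 16 pairs across genotypes 6 to 36, with a median of 13.5. Pairs with more than 50 such sequences are called linked below, a limit that was set after the data had been seen. In linked pairs the shared sequences mostly had more UMIs in 1 library than in the other: 156 of the 220 had more in wt 2 and 9 more in wt 1, and 136 of the 211 had more in Il15° 4 and 7 more in Il15° 1. Wt 2, wt 3 and wt 4 were linked to Il2° libraries as well, whereas no wt library was linked to an Il15° library and no Il15° library to an Il2° library. Il2° 2 with Il2° 3 and Il2° 3 with Il2° 4 were linked too. Il2° values below are thus not independent of wt, and tests of Il15° against Il2° do not rest on independent samples. The source of the shared sequences was not tested. As an example, the following sequence had 1 UMI in Il15° 1, 10 UMIs in Il15° 4 and none in the other 10 libraries, and 161 sequences were found in these libraries alone. It shows in capitals the 8 junction bases outside V and J.
TRAV4D-3 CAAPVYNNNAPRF TRAJ43: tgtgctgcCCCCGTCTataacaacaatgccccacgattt

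Because of the linked pairs, clonotypes shared within a genotype are given with and without them. At equal depth, the 6 pairs of wt libraries shared 1025 ± 325 clonotypes (SD over pairs) and the 6 pairs of Il15° libraries 893 ± 324, against 689 ± 144 for the 16 pairs across genotypes. In percent of the geometric mean of the clonotypes of both libraries, these were 32.0%, 34.7% and 23.6%. Linked pairs stood apart, with 37.5% and 52.7% in wt and 38.5% to 47.1% in Il15°. The 7 pairs of the same genotype that were not linked shared 25.4% ± 1.44, with a range from 23.03% to 26.7%, and the pairs of different genotypes 23.6% ± 1.85, with a range from 21.5% to 26.7%. These ranges overlap over most of their length. With the mean of each genotype weighted equally, the excess within over between genotypes was 270 clonotypes with all pairs and 47.2 without the linked ones.

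**Figure D1:**
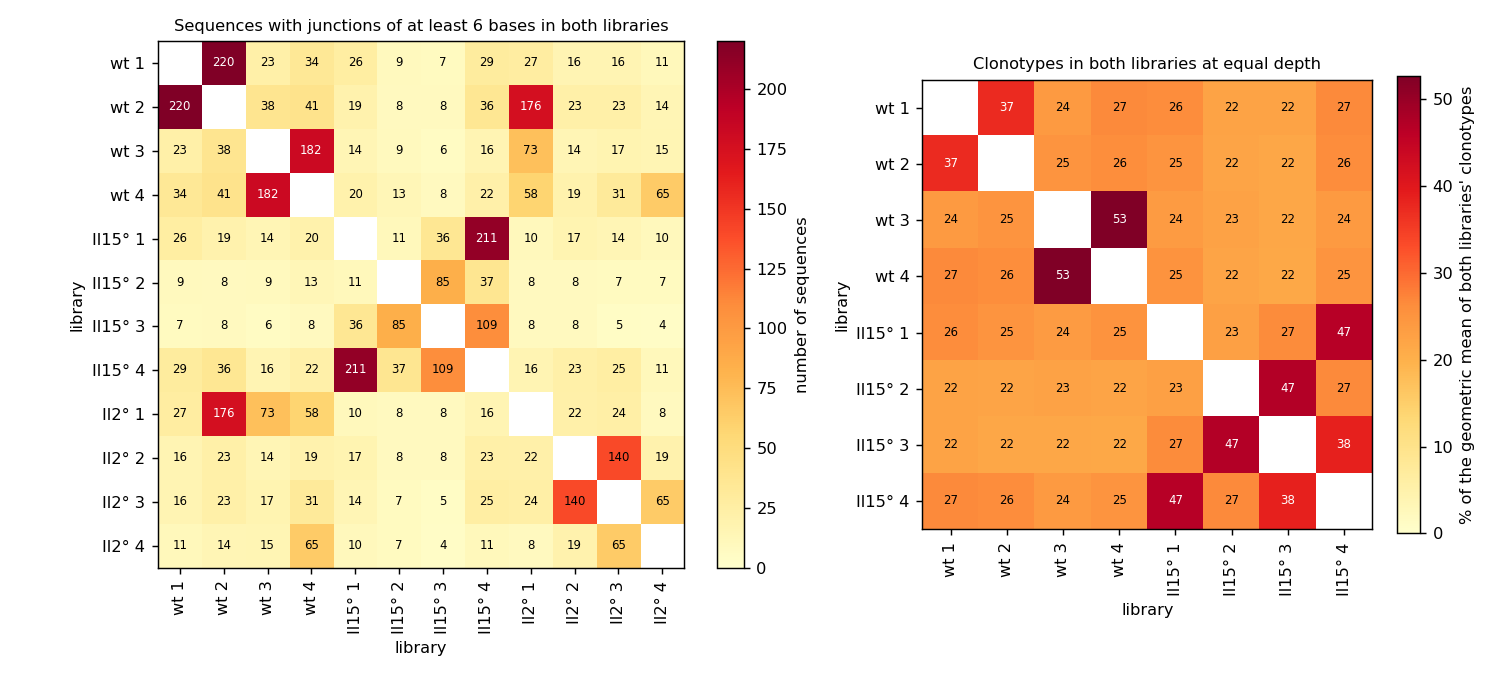
Each cell of the left map gives, for 2 of the 12 libraries, the number of exact sequences with at least 6 junction bases found in both. The right map gives, for the 8 wt and Il15° libraries, the clonotypes found in both at equal depth as a percent of the geometric mean of their clonotypes. In the left map, the 220 sequences of wt 1 with wt 2 and the 211 of Il15° 1 with Il15° 4 are the highest within these genotypes. These pairs are at 37.5% and 46.6% in the right map, where wt 3 with wt 4 (52.7%) and Il15° 2 with Il15° 3 (47.1%) are the highest.

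The usage of J segments was lower in Il15° Treg for 2 of the 40 TRAJ segments tested (5%) and higher for none. TRAJ32, which encodes the CDR3 ending in GSSGNKLIF, fell from a mean of 2.35% to 1.498%, and TRAJ52, which encodes the ending GANTGKLTF, fell from 0.571% to 0.277%. These segments lie in the 5' and central parts of the J cluster on chromosome 14, TRAJ52 at chr14:54165316-54165381 and TRAJ32 at chr14:54186101-54186166 (GRCm38, plus strand). Their germline sequences, credited to GENCODE M21 on GRCm38, are shown because the endings of the CDR3 are read from them. Capitals mark the bases up to the end of the CDR3.
TRAJ32 germline: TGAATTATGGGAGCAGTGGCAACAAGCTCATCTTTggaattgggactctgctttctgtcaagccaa
TRAJ52 germline: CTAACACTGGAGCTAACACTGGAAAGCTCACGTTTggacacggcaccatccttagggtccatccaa

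TRAJ32 had 532, 495, 414 and 401 UMIs in wt and 293, 214, 101 and 300 in Il15° Treg, which is 2.14%, 2.16%, 2.68% and 2.40% against 1.70%, 1.64%, 0.977% and 1.68%. Every Il15° library lay under every wt library, and the widest 95% Wilson interval of a library reached 0.255 percentage points to either side. The means were 2.35% ± 0.253 and 1.498% ± 0.349 (SD, n = 4 each), 1.57-fold lower in Il15°, with a log2 fold change of -0.59 (SE 0.14, adjusted p = 0.00101, edgeR's quasi-likelihood test with Benjamini-Hochberg adjustment over 40 segments). In Il2° Treg TRAJ32 made up 1.99%, 1.65%, 1.63% and 1.65%. The log2 difference between Il15° and Il2° was -0.17, and it did not pass the same edgeR test (adjusted p = 0.466). With linked libraries summed to 2 samples per genotype, the log2 fold change of TRAJ32 was -0.59 (adjusted p = 0.00375 with edgeR). The sums of Il15° 1 with Il15° 4 and of Il15° 2 with Il15° 3 still shared the 109 sequences of Il15° 3 and Il15° 4, so that this p does not rest on independent samples. In sequences found in 1 of the 12 libraries, TRAJ32 was at 1.76%, 1.46%, 3.67% and 2.84% in wt and at 1.34%, 1.74%, 0.770% and 1.70% in Il15° Treg, and these values overlap (-0.67, adjusted p = 0.507 with edgeR). Such sequences hold 6.28% to 32.3% of the UMIs of a library. Nor was TRAJ32 called when each clonotype counted once instead of by its UMIs (-0.29, adjusted p = 0.340, edgeR).

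TRAV4D-3 (chr14:52899969-52900470), the main partner, joined TRAJ32 in 1.55%, 1.66%, 1.81% and 1.63% of the wt UMIs and in 1.41%, 1.13%, 0.696% and 1.33% of the Il15° UMIs. Without TRAV4D-3, TRAJ32 was at 0.597%, 0.507%, 0.869% and 0.772% in wt and at 0.290%, 0.505%, 0.280% and 0.354% in Il15° Treg. Both parts are separated between the genotypes, the second by a gap of 0.507% in wt 2 to 0.505% in Il15° 2. Over all V segments seen with TRAJ32, 30 of 44 had a lower mean in Il15°, as had 157 of its 237 clonotypes (66.2%). Over the whole repertoire, 58.4% of the 2076 V-J pairs and 60.8% of the 15223 clonotypes had a lower mean in Il15°, and TRAJ32 was chosen for its fall, so these counts are a description. TRAJ32 clonotypes at equal depth numbered 64.8, 62.6, 56.4 and 61.3 in wt and 43.0, 41.0, 26.0 and 45.6 in Il15° Treg, without overlap. At the full depth of each library, however, the share of TRAJ32 among all its clonotypes was 1.87% ± 0.221 and 1.503% ± 0.294 with overlap (SD, n = 4, exact Mann-Whitney test, 2-sided, p = 0.114).

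The most abundant TRAJ32 clonotype of wt mice is among those that separated the genotypes. TRAV4D-3 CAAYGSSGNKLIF TRAJ32 had 58, 53, 48 and 54 UMIs in wt and 35, 8, 5 and 23 UMIs in Il15° Treg, and 0.294% on average in Il2°, above the 0.275% of wt. TRAV4D-3 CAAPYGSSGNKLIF TRAJ32, longer by a proline, was at 0.266%, 0.127%, 0.240% and 0.156% in wt and at 0.116%, 0.0688%, 0% and 0.0505% in Il15° Treg. By contrast, the chain that has glycine for the tyrosine of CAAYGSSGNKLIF had a mean of 0.168% in both genotypes, and the chain with histidine had 0.117% in wt and 0.132% in Il15° Treg, with overlap. These clonotypes differ from each other in the residues that follow the V-encoded CAA. Neither the first nor any other TRAJ32 clonotype passed the test for single clonotypes (adjusted p = 0.966 for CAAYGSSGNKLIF, edgeR). Its leading nucleotide sequence is shown with the bases assigned to TRAJ32 in capitals.
TRAV4D-3 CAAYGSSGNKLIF TRAJ32: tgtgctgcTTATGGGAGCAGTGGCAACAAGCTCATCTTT

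TRAJ52 had 168, 167, 70 and 71 UMIs in wt and 62, 24, 19 and 68 in Il15° Treg, or 0.677%, 0.730%, 0.454% and 0.425% against 0.359%, 0.184%, 0.184% and 0.382%. The genotypes did not overlap, although wt 4 and Il15° 4 were close, and counting error reached 0.110 percentage points. The means of 0.571% ± 0.154 and 0.277% ± 0.108 (SD, n = 4 each) give a 2.06-fold lower share in Il15°, with a log2 fold change of -0.95 (SE 0.29, adjusted p = 0.0202, edgeR with Benjamini-Hochberg adjustment). In Il2° Treg TRAJ52 was at 0.557%, 0.499%, 0.536% and 0.480%, all above the Il15° libraries (log2 difference of Il15° to Il2° -0.83, adjusted p = 0.0419, edgeR over 12 libraries). With the linked libraries summed, the fold change was -0.98 and the call was lost (adjusted p = 0.235, edgeR). The call was also lost without wt 2 (adjusted p = 0.153), without Il15° 2 (0.138) or without Il15° 3 (0.171) in the same edgeR test. In sequences found in 1 library TRAJ52 was at 0.760%, 0.396%, 0.773% and 0.879% in wt and at 0.460%, 0.333%, 0% and 0.367% in Il15° Treg, with overlap.

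TRAV17, the most frequent partner of TRAJ52, overlapped between the genotypes with means of 0.120% and 0.106%. TRAJ52 with any other V segment made up 0.451% ± 0.0969 in wt and 0.171% ± 0.0969 in Il15° Treg (SD, n = 4 each) and did not overlap. A lower mean in Il15° was found for 36 of its 40 V partners and 82 of its 110 clonotypes (74.5%), to be read beside the same 58.4% of all V-J pairs and 60.8% of all clonotypes. TRAV13-4/DV7 was joined to TRAJ52 in 11, 29, 1 and 7 UMIs in wt and in none in the Il15° libraries. TRAV4D-4 with TRAJ52 had 10, 6, 13 and 3 UMIs in wt and 1, 0, 0 and 3 UMIs in Il15° Treg. Clonotypes with TRAJ52 numbered 33.6, 31.4, 19.7 and 24.8 at equal depth in wt and 18.1, 6.75, 5 and 18.9 in Il15°, again without overlap. As a share of all clonotypes of a library at its full depth they were 0.849% ± 0.0375 and 0.434% ± 0.177 (SD, n = 4 each), so that TRAJ52 was rarer by clonotypes as well as by UMIs.

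**Figure D2:**
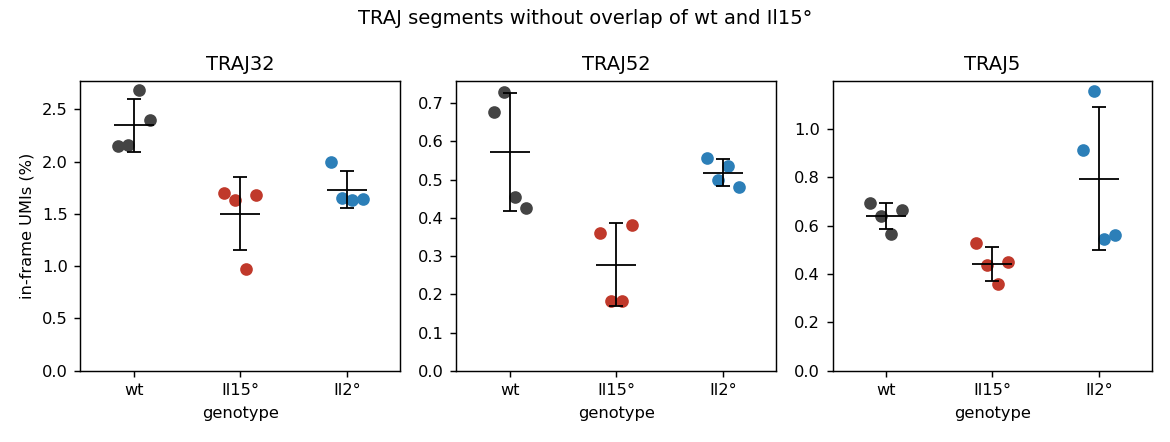
Percent of in-frame UMIs with TRAJ32, TRAJ52 and TRAJ5 in the 4 libraries of each genotype, with points for libraries and bars for mean ± SD. The Il15° points lie under all wt points in each panel, and for TRAJ52 also under the Il2° points, which lie between 0.480% and 0.557%.

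Only TRAJ5, at the 3' end of the J cluster (chr14:54213777-54213838), was separated between the genotypes in addition, so that 3 of the 40 segments (7.5%) did not overlap, all lower in Il15°. It made up 0.693%, 0.638%, 0.564% and 0.665% in wt, 0.527%, 0.436%, 0.358% and 0.449% in Il15° and 0.910%, 1.16%, 0.543% and 0.562% in Il2° Treg. The difference from wt did not pass edgeR's test (log2 -0.47, adjusted p = 0.372), whereas the difference from Il2° did (log2 -0.83, adjusted p = 0.00992). TRAJ28 was at 0.337% ± 0.114 in wt and 0.175% ± 0.0971 in Il15° Treg (SD, n = 4 each, adjusted p = 0.368 with edgeR). It was called only without Il15° 1 (log2 -1.28, adjusted p = 0.0288 with edgeR). Log2 fold changes of the remaining named segments were 0.23 for TRAJ13, 0.24 for TRAJ4, 0.41 for TRAJ48 and 0.22 for TRAJ17, each with an adjusted p of 0.372 in edgeR's test. DESeq2 called 2 of the 40 segments, and the fitted log2 fold change of edgeR was under 1 in size for all 40.

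**Figure D3:**
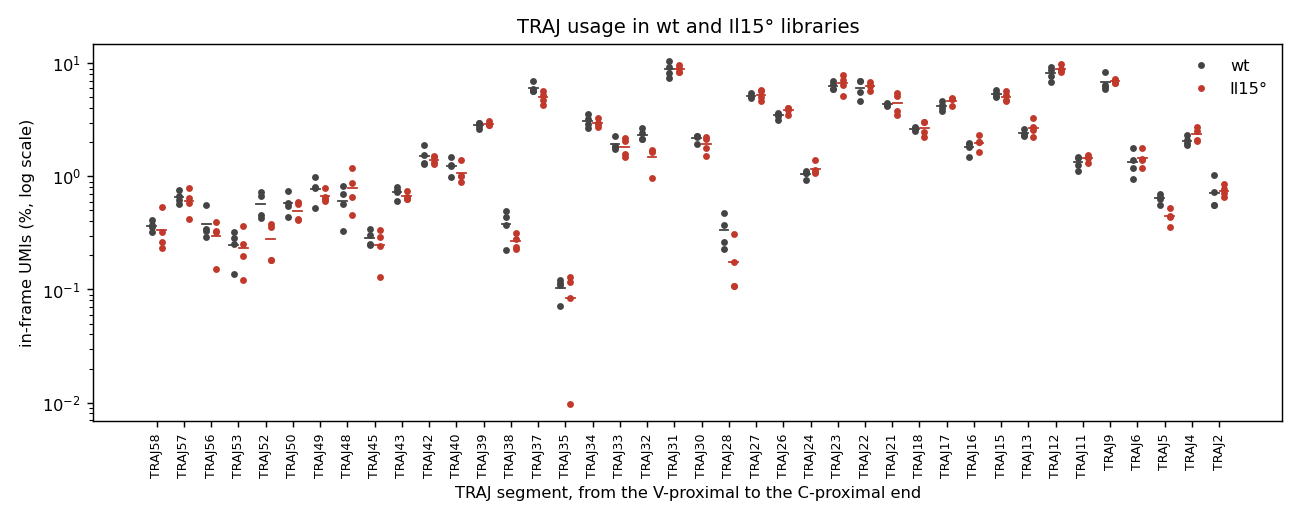
Percent of in-frame UMIs (log scale) for each of the 40 TRAJ segments tested, ordered along the locus, in the 4 wt and 4 Il15° libraries, with points for libraries and lines for means. Segments such as TRAJ31 and TRAJ12 at the top overlap, while TRAJ32, TRAJ52 and TRAJ5 are separated.

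Usage along the J cluster was compared in 4 regions, since recombination proceeds from its 5' to its 3' end. TRAJ61 to TRAJ48 held 4.05%, 4.78%, 3.88% and 4.04% in wt and 2.95%, 4.00%, 4.02% and 3.91% in Il15° Treg (exact Mann-Whitney test, 2-sided, p = 0.2). TRAJ47 to TRAJ35 held 13.2% ± 0.806 and 11.7% ± 0.820 (SD, n = 4 each), with overlap between 12.5% in wt 4 and 12.7% in Il15° 1 (exact p = 0.0571, adjusted 0.229). The more 3' regions were at 34.8% ± 2.23 and 34.2% ± 1.93 for TRAJ34 to TRAJ23 (SD, n = 4, exact p = 0.886) and at 47.9% ± 2.56 and 50.4% ± 2.31 for TRAJ22 to TRAJ2 (exact p = 0.2). No region was separated between the genotypes. The smallest p that 4 against 4 libraries allow is 0.0286. The mean TRAJ number, which falls towards the 3' end, was 24.0 ± 0.658 in wt and 23.3 ± 0.318 in Il15° Treg (SD, n = 4 each, exact Mann-Whitney test, p = 0.2).

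No TRAV segment passed the test between the genotypes (0% of 81), while 7 had an unadjusted p under 0.05 and DESeq2 called 2. TRAV13-4/DV7 (chr14:53757356-53757921) came nearest, with 23, 55, 33 and 36 UMIs in wt and 11, 3, 5 and 4 in Il15° Treg. Its share of 0.191% ± 0.0664 in wt and 0.0394% ± 0.0202 in Il15° (SD, n = 4 each) gives a log2 fold change of -2.21 (SE 0.52, adjusted p = 0.0513, edgeR). In Il2° Treg it was at 0.0857%. TRAV4-3 had 66, 70, 29 and 47 UMIs in wt and 27, 9, 1 and 14 in Il15° Treg (log2 -1.63, adjusted p = 0.141, edgeR), and both segments were lower in each Il15° library than in each wt library. TRAV12-1 was the only segment higher without overlap (0.0785% ± 0.0115 and 0.130% ± 0.0254, SD, n = 4 each), so that 3 of 81 (3.7%) were separated. They hold few UMIs, between 1 and 70 in a library. The copies of TRAV13-4/DV7 did not fall alike. TRAV13N-4 was at 0.197% ± 0.111 in wt and 0.252% ± 0.0495 in Il15° Treg (SD, n = 4 each). TRAV13D-4 was at 0.109% ± 0.0468 and 0.101% ± 0.0769. The whole TRAV13 family overlapped, at 2.77% ± 0.379 and 2.62% ± 0.354 (exact Mann-Whitney test, 2-sided, p = 0.886). How much of the differences of single V segments lies in the V names was not tested.

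TRAV14-3 was at 1.02%, 0.673%, 0.577% and 0.736% in wt and at 1.15%, 1.52%, 1.02% and 1.20% in Il15° Treg (log2 0.72, adjusted p = 0.141, edgeR). Against Il2°, where its mean was 0.743%, the log2 difference of 0.89 passed the test (adjusted p = 0.0228, edgeR over 12 libraries). This comparison depends on the V name. A TRAJ13 sequence named TRAV14-3 in the 4 Il15° libraries (12, 14, 11 and 10 UMIs) was named TRAV14D-3/DV8 in Il2° (0, 9, 11 and 8 UMIs). How much of the difference lies in the names was not tested. The whole TRAV14 family, whose members have near-identical sequences, made up 6.03%, 6.16%, 5.996% and 6.46% in wt and 7.08%, 8.85%, 7.58% and 7.07% in Il15° Treg. This is a separation of the genotypes (exact Mann-Whitney test, 2-sided, p = 0.0286, the smallest p possible), which did not pass adjustment over the 20 families (adjusted p = 0.571). TRAV4 was the leading family in both with 35.4% ± 2.16 and 33.1% ± 2.12 (SD, n = 4, exact p = 0.686), followed by TRAV7 with 19.1% ± 1.52 and 18.8% ± 1.72 (SD, n = 4, exact p = 0.886). Log2 fold changes of the other named V segments were -2.10 for TRAV15-2/DV6-2, 0.93 for TRAV9N-2, 0.42 for TRAV3D-3, 0.52 for TRAV6-5 and -1.66 for TRAV14N-2, with adjusted p between 0.409 and 0.510 in edgeR's test.

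V segments were also grouped by family number and by the D or N in the names of duplicated copies. The families TRAV14 to TRAV21, with their D and N copies wherever these lie, held 10.6% ± 1.34 in wt and 11.8% ± 1.30 in Il15° Treg (SD, n = 4 each, exact Mann-Whitney test, p = 0.343). V copies with D in their name held 44.3% ± 2.18 and 43.0% ± 1.63 (SD, n = 4 each, exact p = 0.686), copies with N 20.2% ± 1.27 and 20.6% ± 0.697 (SD, n = 4 each, exact p = 0.886), and the remaining V segments 35.5% ± 1.05 and 36.4% ± 1.15 (SD, n = 4 each, exact p = 0.486). All 4 had an adjusted p of 0.886. A p of this size does not show that the shares are equal.

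Pairs of a V with a J segment were the next level. Of 2076 pairs seen, 528 had enough UMIs to be tested, which hold 88.0% of all UMIs, and none differed between the genotypes by edgeR's test (0%, 30 with an unadjusted p under 0.05, smallest adjusted p = 0.0572). DESeq2 called 4, of which 3 were higher in Il15°. The libraries of the genotypes did not overlap for 28 of the 528 pairs (5.3%), 9 higher and 19 lower in Il15° Treg. The fitted difference was under 2-fold for 424 of the pairs, with a median log2 fold change of -0.03.

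**Figure D4:**
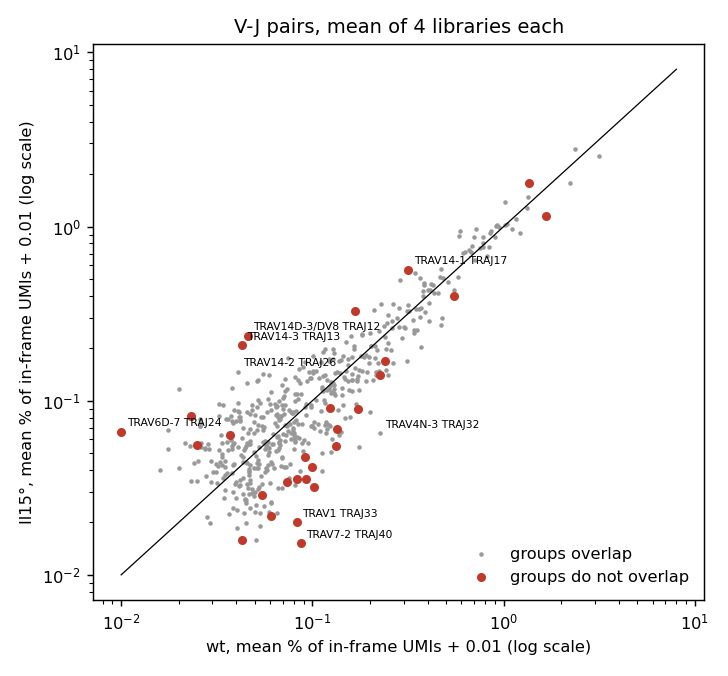
Mean percent of in-frame UMIs plus 0.01 in wt and in Il15° libraries (log scales) for the 528 V-J pairs tested, with the line of equal values. Red points are the 28 pairs whose libraries do not overlap, and names are given for the 8 pairs with the smallest p.

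The pairs with the smallest p include 3 of the TRAV14 family that were higher in Il15° Treg. TRAV14-3 TRAJ13 had 5, 8, 9 and 3 UMIs in wt and 27, 39, 21 and 24 in Il15° (log2 2.57, SE 0.57, adjusted p = 0.0572, edgeR). TRAV14D-3/DV8 TRAJ12 had 13, 9, 7 and 1 UMIs in wt and 54, 12, 30 and 37 in Il15° (log2 2.61, SE 0.59, adjusted p = 0.0572, edgeR). TRAV14-1 TRAJ17 had 53, 73, 51 and 61 UMIs in wt and 73, 123, 40 and 84 in Il15°, or 0.307% ± 0.0653 and 0.555% ± 0.259 (SD, n = 4 each, adjusted p = 0.716, edgeR). All 3 were separated between the genotypes by share. TRAV14-2 TRAJ26, with 8, 2, 9 and 4 against 9, 11, 35 and 13 UMIs, was high mainly in Il15° 3 and overlapped.

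Among the lower pairs, TRAV7-2 TRAJ40 had 15, 14, 13 and 17 UMIs in wt and 0, 0, 1 and 2 in Il15° Treg (log2 -3.71, SE 1.07, adjusted p = 0.289, edgeR), whereas Il2° Treg had 5, 11, 5 and 6. TRAV4N-3 TRAJ32 had 25, 20, 69 and 37 UMIs in wt and 2, 18, 5 and 4 in Il15° Treg, with overlap. TRAV6D-7 TRAJ24 was found in no wt library and with 7, 13, 6 and 5 UMIs in the Il15° libraries. Summed over libraries it was at least 14.1-fold higher in Il15° Treg, against a floor of 3 UMIs over the 4 wt libraries.

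Several of these differences depend on the V name, since V segments of a family can share the part of the sequence that was read. Counted over the whole TRAV14 family, TRAJ13 was at 0.246%, 0.266%, 0.227% and 0.383% in wt and at 0.371%, 0.367%, 0.242% and 0.297% in Il15° Treg and overlapped. TRAJ17 with this family also overlapped, at 0.552%, 0.489%, 0.434% and 0.467% in wt and 0.678%, 0.963%, 0.532% and 0.668% in Il15° Treg. TRAJ12 with the TRAV14 family did not overlap, with 1.03%, 0.839%, 0.739% and 0.946% against 1.33%, 1.34%, 1.24% and 1.23%. The TRAV4 family with TRAJ32 (1.89% ± 0.262 and 1.21% ± 0.316) and the TRAV6 family with TRAJ24 (0.109% ± 0.0148 and 0.136% ± 0.0117, SD, n = 4 each) were separated as well. TRAJ40 with the TRAV7 family overlapped and was highest in Il15° 2 (0.558%).

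**Figure D5:**
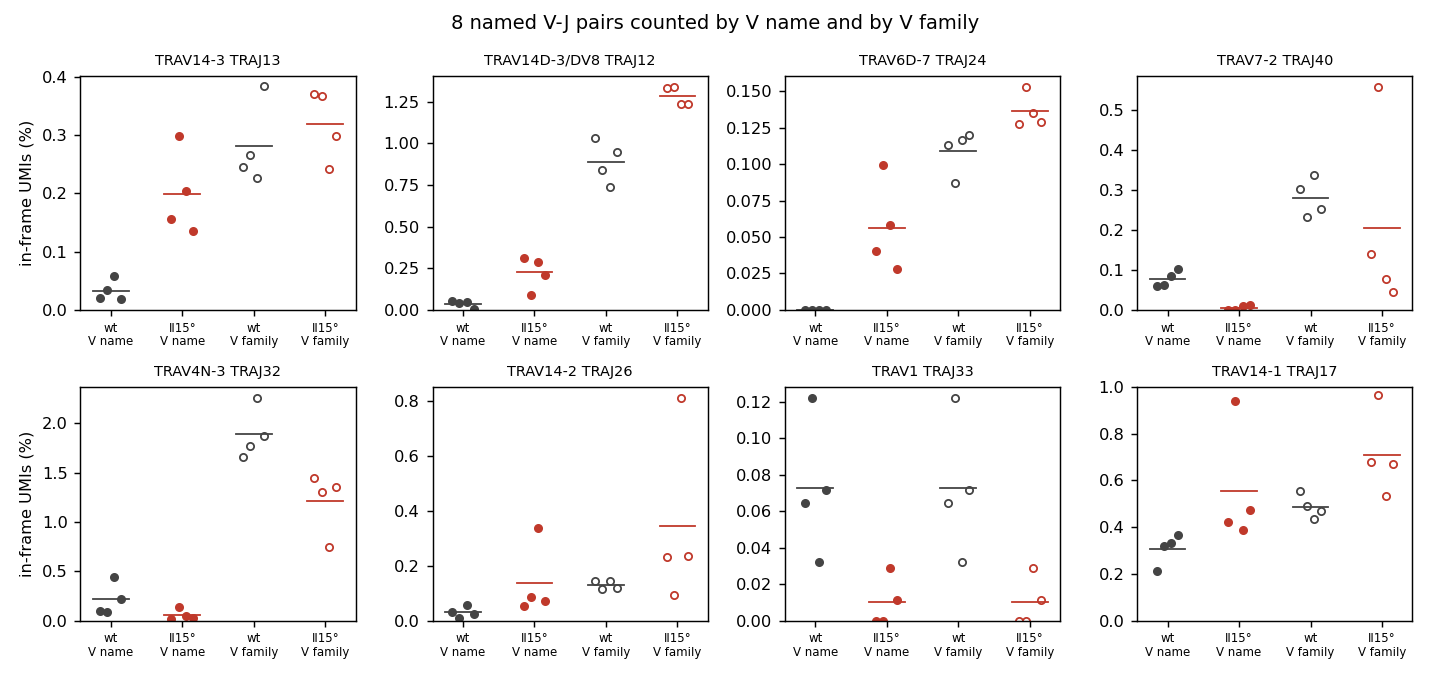
Percent of in-frame UMIs of the 8 named V-J pairs in the 4 wt and 4 Il15° libraries, counted for the V name of the title (filled) and for all V names of its family (open), with lines for means. For TRAV14-3 TRAJ13 and TRAV14-1 TRAJ17 the genotypes separate by V name and overlap by family.

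How a V name can move a pair is visible in a single clonotype. TRAV14-3 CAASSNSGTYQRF TRAJ13 had 3, 1, 9 and 3 UMIs in wt and 13, 22, 20 and 19 in Il15° Treg, while the same CDR3 with TRAJ13 and any TRAV14 name had 21, 17, 9 and 14 in wt and 25, 22, 20 and 19 in Il15°. By family, the mean share was 0.0753% ± 0.0122 in wt and 0.153% ± 0.0369 in Il15° (SD, n = 4 each), without overlap and with a smaller distance. The first sequence was named TRAV14D-3/DV8 in wt 1 and wt 2, with 18 and 16 UMIs, and TRAV14-3 in wt 3 and in the 4 Il15° libraries, with 4 UMIs and with 12, 14, 11 and 10 UMIs. The second was named TRAV14-3 in wt 1, wt 3, Il15° 2, Il15° 3 and Il15° 4 and TRAV14D-3/DV8 in wt 4 and Il15° 1. Each library thus gave a sequence only 1 V name. Capitals are the bases assigned to TRAJ13, which in the first sequence begin inside the part assigned to V.
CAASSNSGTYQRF TRAJ13, first: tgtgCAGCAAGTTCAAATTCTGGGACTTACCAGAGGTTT
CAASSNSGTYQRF TRAJ13, second: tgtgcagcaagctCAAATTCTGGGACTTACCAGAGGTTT

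For single clonotypes, 466 of the 15223 passed the filter, with 43.4% of the UMIs, and none was called (0%, 19 with an unadjusted p under 0.05, smallest adjusted p = 0.178, edgeR). DESeq2 called 5, of which 4 were higher in Il15°, and 26 of the 466 (5.58%) did not overlap, 9 higher and 17 lower. The chain with the highest mean share was the same in both genotypes, TRAV10 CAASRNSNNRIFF TRAJ31, with 284, 410, 385 and 317 UMIs in wt and 420, 230, 292 and 456 in Il15° Treg. It was encoded by 12 nucleotide sequences, of which the leading one was found in each library. TRAV4D-3 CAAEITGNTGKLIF TRAJ37 was at 1.22% ± 0.405 in wt, 0.761% ± 0.243 in Il15° and 0.358% ± 0.183 in Il2° Treg (SD, n = 4 each), with overlap between wt and Il15°. A TRAV16 chain with TRAJ12 had 429, 337, 60 and 80 UMIs in wt and 149, 75, 174 and 151 in Il15°, with a larger spread among wt mice than between the genotypes. The 10 most abundant clonotypes of a library held 8.54% ± 0.690 of the wt and 8.998% ± 1.09 of the Il15° UMIs (SD, n = 4 each, exact Mann-Whitney test, p = 0.686).

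Other clonotypes with small p were rarer. TRAV14D-3/DV8 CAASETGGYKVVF TRAJ12 had 4, 1, 0 and 0 UMIs in wt and 11, 12, 19 and 18 in Il15° Treg, and counted over the TRAV14 family 4, 4, 0 and 0 against 12, 12, 19 and 18. TRAV12N-3 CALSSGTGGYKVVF, also with TRAJ12, had 11, 7, 5 and 2 against 20, 10, 33 and 23 UMIs. In the opposite direction, TRAV7-2 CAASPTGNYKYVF TRAJ40 had 12, 7, 9 and 9 UMIs in wt and 0, 0, 0 and 1 in Il15°, and TRAV13D-1 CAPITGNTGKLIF TRAJ37 had 6, 14, 12 and 15 against 1, 0, 0 and 2. All were separated between the genotypes by share, with adjusted p between 0.178 and 0.405 in edgeR's test. TRAV7-2 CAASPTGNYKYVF TRAJ40 was encoded by 4 nucleotide sequences in these libraries. The leading sequences of a higher and of the lower TRAV7-2 chain are shown, with the bases assigned to J in capitals.
TRAV14D-3/DV8 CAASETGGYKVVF TRAJ12: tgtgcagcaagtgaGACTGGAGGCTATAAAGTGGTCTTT
TRAV7-2 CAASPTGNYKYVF TRAJ40, first: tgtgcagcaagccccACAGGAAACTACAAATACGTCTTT
TRAV7-2 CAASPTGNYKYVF TRAJ40, second: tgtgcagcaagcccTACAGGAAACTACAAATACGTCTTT

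Clonotypes found in all mice of a genotype were counted at equal depth. All 4 wt libraries held 449 clonotypes and all 4 Il15° libraries 341, and 201 were in all 8, which is 44.8% of the first and 59.0% of the second number. Of the clonotypes of all wt libraries, 39.0 (8.68%) were in no Il15° library, and of those of all Il15° libraries 23.7 (6.94%) were in no wt library. These numbers contain the linked libraries, as each genotype is made of linked pairs. The clonotypes of all wt libraries that no Il15° library held had a mean CDR3 of 12.9 amino acids, 28.5% TRAV7 and 6.09% TRAV6 chains and 10.9% TRAJ61 to TRAJ48. Their Il15° counterparts had a mean of 13.6 amino acids, 6.72% TRAV7, 25.5% TRAV6 and 3.54% TRAJ61 to TRAJ48. For comparison, all clonotypes common to the wt libraries had 20.3% TRAV7, 9.39% TRAV6 and 4.37% TRAJ61 to TRAJ48. The sets were chosen by presence in these libraries, and their makeup is a description without a test. Presence was counted by V name, and a chain absent under its name can be present under another name of its V family, as shown for some below. How many chains of these sets this holds for was not tested.

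By name, 50 clonotypes were found in at least 10 of the 20 draws of every wt library and in no draw of an Il15° library, and 25 the other way. In the Il2° libraries, 5 of the 50 were present in all 4 and 8 in none, while of the 25 none was in all 4 and 11 were in none. Il2° libraries were linked to wt 2, wt 3 and wt 4 but to no Il15° library. The counts for the 50 and for the 25 can therefore not be compared as a trait of Il2° Treg. The leading wt chain was TRAV7-2 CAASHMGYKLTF TRAJ9 with 41, 20, 4 and 7 UMIs, none in Il15° and 1, 10, 20 and 16 UMIs in Il2° Treg. Summed over libraries this is at least 17.6-fold lower in Il15°, against a floor of 3 UMIs over the group. A TRAV7-2 TRAJ27 chain of 13 amino acids had 12, 12, 12 and 10 UMIs in wt, none in Il15° (at least 11.2-fold lower) and 2, 5, 10 and 3 in Il2° Treg, from 3 nucleotide sequences. TRAV4N-3 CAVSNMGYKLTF TRAJ9 (6, 3, 17 and 5 UMIs) and TRAV6D-7 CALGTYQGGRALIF TRAJ15 (9, 13, 3 and 8 UMIs) were also found in wt alone by V name, but over their V families Il15° Treg had 6, 0, 0 and 0 and 0, 4, 0 and 1 UMIs.

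The leading Il15° chain was TRAV6D-7 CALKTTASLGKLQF TRAJ24, with 7, 13, 6 and 5 UMIs, none in wt and 0, 1, 9 and 0 in Il2° Treg, and it alone makes up the TRAV6D-7 TRAJ24 pair described above. A single nucleotide sequence encoded it, with 5 junction bases outside V and J, in 4 libraries that form a chain of linked pairs. TRAV3-3 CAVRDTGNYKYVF TRAJ40 had 4, 3, 10 and 4 UMIs and TRAV4-2 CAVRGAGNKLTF TRAJ17 5, 11, 2 and 1, each with none in wt under its V name, and over the TRAV3 family the first had 1 UMI in wt 3. A TRAV14D-3/DV8 chain of 17 amino acids with TRAJ2 had 1, 9, 2 and 12 UMIs and none in wt under this name. Over the TRAV14 family it had 61, 35, 6 and 13 UMIs in wt and 27, 21, 4 and 29 in Il15°, so that it was not missing from wt mice. The sequences of the leading chains are shown with the bases assigned to J in capitals.
TRAV7-2 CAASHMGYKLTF TRAJ9: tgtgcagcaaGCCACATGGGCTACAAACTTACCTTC
TRAV7-2 TRAJ27, chain of 13 amino acids: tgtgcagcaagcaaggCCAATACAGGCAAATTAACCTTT
TRAV6D-7 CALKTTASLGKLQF TRAJ24: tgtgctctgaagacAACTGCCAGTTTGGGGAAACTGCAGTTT

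The number of clonotypes at equal depth was 3677, 3674, 2541 and 3148 in wt and 3128, 2144, 1971 and 3184 in Il15° Treg. The means of 3260 ± 540 and 2606 ± 638 (SD, n = 4 each) differed by more than either SD, but the values overlapped and the exact 2-sided Mann-Whitney test gave p = 0.2. The number of V-J pairs was 1017 ± 86.9 and 880 ± 121 (SD, n = 4, exact p = 0.114), and a clonotype was encoded by 1.22 and 1.19 nucleotide sequences on average (exact p = 0.343).

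No difference in CDR3 length or junctions passed a test. The mean length was 13.1 amino acids in both genotypes, higher by 0.0157 in Il15° (n = 4 each, exact Mann-Whitney test, p = 0.114). CDR3 of 13 amino acids made up 32.8% ± 1.41 and 33.2% ± 1.74 and those of 14 amino acids 30.7% ± 0.152 and 31.4% ± 1.39 (SD, n = 4 each), and no length passed the test. Between V and J lay 2.12, 2.08, 2.04 and 2.03 bases on average in wt and 2.07, 2.10, 1.94 and 2.08 in Il15° Treg (exact p = 0.886). Junctions without such bases were at 32.8% ± 1.08 and 33.2% ± 1.39 (SD, n = 4, exact p = 0.686).

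In the central CDR3, from which the first 3 and last 4 residues were left out, 2 of the 20 amino acids (10%) were separated between the genotypes, both lower in Il15° Treg. Threonine made up 7.56%, 7.38%, 7.59% and 7.34% of the central residues in wt and 7.17%, 6.96%, 7.04% and 7.26% in Il15° Treg. Isoleucine made up 0.848%, 0.866%, 1.02% and 0.857% in wt and 0.824%, 0.8294%, 0.752% and 0.831% in Il15° Treg. Both had the smallest p of the exact Mann-Whitney test (0.0286) and an adjusted p of 0.286 over 20 residues, and neither was separated when the 10 most abundant clonotypes were left out or in sequences found in 1 library. Glutamic acid was at 3.24% ± 0.153 and 3.04% ± 0.170 (SD, n = 4, exact p = 0.2) and at 2.58% ± 0.160 in Il2° Treg. Hydrophobic residues held 14.6% ± 0.378 and 14.7% ± 0.281 (SD, n = 4 each, exact p = 0.686).

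V-J pairs typical of other T cells were looked up, although the gate, in which Thy1.1 reports Foxp3 and GFP recent Rag2 activity, would remove most of these cells. The TRAV1 TRAJ33 pair is that of MAIT cells, which recognise vitamin metabolites, but not every chain with this pair is of that kind. It had 16, 28, 5 and 12 UMIs in wt, 0, 0, 3 and 2 in Il15° and 19, 10, 6 and 18 in Il2° Treg. Its share was 0.0728% ± 0.0372 in wt, 0.0101% ± 0.0137 in Il15° and 0.123% ± 0.0950 in Il2° (SD, n = 4 each), and Il15° lay under wt and under Il2° in each library (exact Mann-Whitney tests, 2-sided, p = 0.0286 each, the smallest p possible). The pair is also among the 8 V-J pairs with the smallest p, where it did not pass edgeR's test (log2 -2.90, adjusted p = 0.716), and it is 1 of the 28 of 528 pairs (5.3%) that separated wt from Il15°. With 0 UMIs, Il15° 1 and Il15° 2 allow a share of up to 0.0174% and 0.0229% by the floor of 3 UMIs, and of up to 0.0222% and 0.0294% by the 95% Wilson interval. TRAV1 with other J segments was at 0.620% and 0.535% (exact p = 0.486), and TRAJ33 with any V at 1.92% and 1.82% (exact p = 0.686), and these overlapped. The leading TRAV1 TRAJ33 sequence, printed with its J bases in capitals, had 9, 18, 5 and 0 UMIs in wt and 0, 0, 0 and 1 in Il15° Treg. Its share overlapped between these genotypes (exact Mann-Whitney test, 2-sided, p = 0.143). The pair held 9 clonotypes, and the one of this sequence, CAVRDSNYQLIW, had 50% of its UMIs. The TRAV11 TRAJ18 pair of iNKT cells, which recognise lipids, had 8, 5, 14 and 17 UMIs in wt and 11, 15, 1 and 1 in Il15° Treg (exact p = 0.686). At a summed 61 and 5 UMIs for TRAV1 TRAJ33 and 44 and 28 UMIs for TRAV11 TRAJ18, both pairs are rare, and their part in the other results was not tested.
TRAV1 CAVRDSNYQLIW TRAJ33: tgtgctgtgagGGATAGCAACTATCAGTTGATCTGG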

How the data were processed

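RNA of sorted thymic Treg from 12 mice was turned into Tcra libraries with UMIs, and 8 libraries (4 wt, 4 Il15°) were compared. As the study's methods describe it, reads were filtered for quality, joined to a consensus per UMI (UMIs with at least 2 reads) with pRESTO and assigned to V, CDR3 and J with MiXCR, and the tables have the format of VDJtools. The submitters' processing notes name mm10; the tool versions are not given in the sources used here. The deposited counts are UMIs per nucleotide sequence, not normalized and not pooled, and the deposited fraction is the count divided by the library total; the fraction was not used further. The deposited V end and J start positions gave the junction bases.

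Only in-frame sequences were kept. UMIs were summed per V-J pair, TRAJ, TRAV or clonotype, and features were kept when 4 or more of the 8 libraries had 5 or more UMIs and tested by edgeR's quasi-likelihood test (TMM, Benjamini-Hochberg, threshold 0.05). Shares and means were compared by exact 2-sided Mann-Whitney tests, and counting intervals are 95% Wilson intervals. Depth was 10340 to 24811 in-frame UMIs per library. Il15° was set against Il2° in an edgeR fit of all 12 libraries. Groups came from the labels. Named were, for TRAJ, TRAV and V-J pairs, those called, filled to 8 by the smallest p; for clonotypes, the 3 most abundant of each genotype, the 8 with the smallest p and the 4 leading ones found in all libraries of 1 genotype and none of the other; and 3 residues. V partners and clonotypes of TRAJ32 and TRAJ52, V families, TRAV12-1 and the example of a linked pair were chosen after their values were seen. The members and lists were chosen with earlier results of these data known. Mice were not paired by replicate number in the main tests, as the labels do not say that the numbers pair them. Deviations of same-numbered libraries correlated with r of 0.0109 to 0.103 over V-J pairs, and those of other numbers with -0.0692 to 0.0613. These values do not exclude a pairing. Positions are from GENCODE M21 (GRCm38) by name, matched for 99 of 102 TRAV and 43 of 43 TRAJ names.

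Alternatives covered the tool (DESeq2, limma on log2(percent + 0.01)), normalization, filters, all rows, clonotypes counted once, equal depth, V copies merged, a block for the replicate number and leaving out each library; those on linked libraries were added after the data had been seen. Scripts were tested on simulated data. The tools were edgeR 4.0.16, DESeq2 1.42.0 and limma 3.58.1 in R 4.3.3, and scipy 1.17.1, pandas 2.3.3, numpy 2.4.6 and matplotlib 3.10.9 in Python 3.11.15.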

Additional observations from a re-analysis of the deposited data

Results flagged for a closer look

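Of 100 groups of 4 libraries examined, 8 had 1 library apart from the other 3 by more than Dixon's limit, and chance sets about 1 in 20 groups apart. Il15° 3 was low for TRAJ32 (0.977%, others 1.64% to 1.70%) and for isoleucine (0.752%, others 0.824% to 0.831%) and high for TRAV14-2 TRAJ26 (0.338%, others 0.0521% to 0.0841%). Il15° 3 was also the shallowest library and the one with the fewest UMIs in sequences of its own (6.28%). Il15° 1 was low for TRAJ61 to TRAJ48 (2.95%, others 3.91% to 4.02%). Il15° 2 was high for TRAV14-1 TRAJ17 (0.941%, others 0.387% to 0.471%). Il15° 4 was the only Il15° library with TRAV7-2 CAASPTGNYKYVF TRAJ40 (0.00561%, which is 1 UMI). Wt 3 was high for isoleucine (1.02%, others 0.848% to 0.866%) and for TRAV4D-3 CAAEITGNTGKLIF TRAJ37 (1.82%, others 0.965% to 1.08%).

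Il15° differed from Il2° Treg in 3 of the named segments by edgeR's test of the difference over the 12 libraries. TRAJ52 was lower in Il15° (log2 difference -0.83, adjusted p = 0.0419), as was TRAJ5 (-0.83, adjusted p = 0.00992), and TRAV14-3 was higher (0.89, adjusted p = 0.0228). Segments that were not named passed the same edgeR test as well, all higher in Il15°. They were TRAJ24 (0.75, adjusted p = 0.00367), TRAJ22 (0.44, 0.00992), TRAV4D-3 (0.58, 0.0228) and TRAV4N-3 (0.56, 0.0228). Thus TRAJ52, TRAJ5, TRAJ24 and TRAJ22 passed among the 40 TRAJ segments tested against wt. TRAV14-3, TRAV4D-3 and TRAV4N-3 passed among the 81 TRAV segments. Those named had been chosen by the comparison with wt. TRAJ52 and TRAV14-3 separated Il15° from Il2° in 4 of 4 libraries, as did TRAJ5, whose Il15° values lay between 0.358% and 0.527% and whose Il2° values began at 0.543%. For TRAV14-3 the limit of the V names given above holds here too. Il2° libraries were linked to wt and to each other, so the libraries of this test are not independent.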

How the results depend on the processing

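Of 692 recomputed values of single named segments, pairs and clonotypes, 646 kept their direction and side of the threshold, 11 lost a call, 21 gained one and 14 changed sign. Called TRAJ segments were 2, but 1 with all rows, with clonotypes counted once, without sequences of 1 UMI and with linked libraries summed (sums that in Il15° remain linked to each other), 0 with the replicate block and in sequences found in 1 library, and 1 to 3 with a library left out (1 without wt 2, Il15° 2 or Il15° 3, and 3 without Il15° 1). Whether replicate numbers pair the mice is not known. Of the 8 libraries, 3 correlated best with their own number, which can neither show nor exclude a pairing. With the number as a block, TRAJ32 had a log2 fold change of -0.60 (adjusted p = 0.175, edgeR) and TRAJ52 of -0.99 (adjusted p = 0.215), and neither was called. TRAJ32 was called without each library in turn, from -0.45 to -0.71, but not when clonotypes were counted once (-0.29, adjusted p = 0.340, edgeR). Against 0 called TRAV segments, DESeq2 gave 2, total UMIs 1, clonotypes counted once 3 and libraries left out 0 to 2 (2 without wt 1 or Il15° 1). Against 0 called V-J pairs, DESeq2 gave 4, no filter 1 and libraries left out 0 to 1 (1 without Il15° 2), and DESeq2 called 5 clonotypes. Separated TRAJ regions were 0, but 2 with clonotypes counted once, 1 with the block, where all 4 differences of same-numbered libraries had 1 sign, and 0 to 1 with a library left out. Separated V groups were 1 with clonotypes counted once. Separated residues were 2, but 0 without the 10 most abundant clonotypes and in sequences of 1 library, 1 in a narrower window and 2 to 3 with a library left out. The difference in junction bases changed sign without the 10 most abundant clonotypes (0.00282) and ranged from -0.039 to 0.0175 with a library left out. Signs also changed for TRAV14-1 TRAJ17 with clonotypes counted once (-0.23), in sequences of 1 library for TRAJ4 (-0.0432), TRAJ48 (-0.86), TRAV14-3 (-0.0152) and TRAV9N-2 (-0.41), and for the TRAV16 TRAJ12 clonotype, whose log2 fold change of -0.12 became 0.0621 with DESeq2, 0.0587 with RLE, 0.0413 at equal depth, 0.0447 with the block, 0.14 with limma, 0.00588 with V copies merged, and ranged from -0.56 to 0.30 with a library left out (0.30, 0.16 and 0.11 without wt 1, wt 2 and Il15° 2). These causes were not tested. The excess of clonotypes shared within genotypes went from 270 to 50.6 when presence meant 2 UMIs.

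Beyond counting error, the mice differed by a coefficient of variation of 0.567 for V-J pairs and 0.738 for clonotypes against 0.153 for TRAJ segments. A share under 3 UMIs, which is 0.0121% to 0.0290% of a library, was not detectable at this depth. Linked libraries are not independent samples, and p-values that take them as 4 mice per genotype are too small to that extent.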
